A study of Mus musculus with 12 samples.

Results

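Stat3 occupancy was examined at 9 genes that encode transcription regulators and that are known as Stat3 targets from other systems: Sbno2, Bcl3, Bcl6, Cebpb, Cebpd, Myc, Klf4, Irf1 and Nfil3. The 9 genes were chosen by name from 21938 annotated protein-coding genes, and all 9 were found in the annotation. Every ChIP-seq summit within 50 kb of any annotated transcriptional start site of each gene was collected from 5 lists of summits, and each summit was described by its distance to the nearest start site, its place in the gene and the rank of its score within its list. A summit is the position of a read peak at which most precipitated DNA was sequenced.

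The cells were polyclonal lines of immortalised mouse embryonic fibroblasts (MEFs) derived from Stat3 fl/fl MEFs. Retroviral Cre had removed endogenous Stat3 from all of them, and a retroviral GFP vector had put back the wild-type protein (-/-WT) or the redox-insensitive form Stat3-C3S, with substituted cysteines in the DNA binding domain (-/-C3S), so that in every group Stat3 was made from a vector and not from its own gene. For -/-WT MEFs there were lists from untreated cells (basal), from cells given 10 ng/ml of LIF, a Stat3-activating cytokine, for 45 min, and from cells given hydrogen peroxide for 1 h. For -/-C3S MEFs there were lists from untreated and peroxide-treated cells, also after 1 h. The peroxide dose reads 100 mM in the sample labels and is micromolar in the study's methods. All cells had been starved in low serum, and no -/-C3S MEFs with LIF were among the samples used here. Each condition had 2 ChIP replicates, from which peaks were called together, so that there is 1 list per condition and no value below has a replicate error. No test was therefore made between conditions, and summits cannot tell fewer cells with Stat3 at a site from less Stat3 at it in each cell. The lists hold no RNA, so the cell type could not be checked against its markers.

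The lists of -/-WT MEFs held 230 (basal), 1088 (LIF) and 450 (peroxide) summits, and those of -/-C3S MEFs 145 (basal) and 223 (peroxide). On average 9.72% of the bases within 80 bp of a LIF summit lay in repeats, as marked in the reference genome, against 94.4 to 99.3% in the other lists. The files give no read depth, and the LIF libraries were the more deeply sequenced ones by the study's text. Depth and LIF can therefore not be told apart where a summit is present in the LIF list and absent from another. Going by the numbers that the peaks bear, the LIF list kept 96.8% of its numbered peaks. The other lists kept 39.6 to 55.2%. Absence from a list says only that no peak was called, or that a called peak was not kept.

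As background, a cytokine of the LIF and IL-6 family acts through receptors that share gp130, which leads to phosphorylation of Stat3 by JAK kinases. Phosphorylated Stat3 dimers enter the nucleus and bind palindromic elements called SIEs, with the consensus TTCCNGGAA, within the broader Stat family pattern TTCNNNGAA. Among the genes that Stat3 is known to induce are regulators that act on transcription in turn, both activators and repressors, which makes them a second tier of the cytokine response.

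The sequences at the summits that carry most of the findings are shown here, to let the Stat3 sites be compared. They were read from GRCm38.p6 on the plus strand, 5′ to 3′. Capitals mark consensus SIEs, SIEs with 1 mismatch, other TTCNNNGAA sites and AP-1 sites (TGANTCA, bound by Fos and Jun proteins). Where a window overlapped an annotated untranslated region (UTR), only the site and a few flanking bases are given.
Sbno2, highest-scoring intronic summit, chr10:80075454-80075543: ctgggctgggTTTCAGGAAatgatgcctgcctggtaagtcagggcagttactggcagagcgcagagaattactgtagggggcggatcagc
Sbno2, site beside the summit at a coding start site, chr10:80101193-80101221: ctcacaggcaTTCCGGGAAgcagagccgg
Sbno2, upstream summit, chr10:80107761-80107841: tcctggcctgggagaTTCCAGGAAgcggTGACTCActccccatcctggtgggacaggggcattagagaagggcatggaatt
Sbno2, sites beside the summit furthest into the gene, chr10:80071305-80071333: actgtggaggTTCCTGGAAggcTGAGTCA
Bcl3, higher-scoring intronic summit, chr7:19817494-19817574: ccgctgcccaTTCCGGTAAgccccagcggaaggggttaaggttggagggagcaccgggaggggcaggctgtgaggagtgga
Bcl3, lower-scoring intronic summit, chr7:19816309-19816435: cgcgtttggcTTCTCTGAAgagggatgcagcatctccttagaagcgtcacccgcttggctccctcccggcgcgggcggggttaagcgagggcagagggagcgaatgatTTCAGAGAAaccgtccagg
Bcl6, site beside the summit in the first exon, chr16:23988579-23988607: tgtccggcctTTCCTAGAAacttcttgca
Irf1, distal upstream summit, chr11:53762967-53763047: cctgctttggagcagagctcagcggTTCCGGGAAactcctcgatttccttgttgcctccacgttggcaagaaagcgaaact
Irf1, promoter summit, chr11:53769895-53769975: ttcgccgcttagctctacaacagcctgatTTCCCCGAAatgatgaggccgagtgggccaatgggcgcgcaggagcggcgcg

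These windows differ in the Stat site they hold. The Sbno2 windows upstream and furthest into the gene pair a consensus SIE with an AP-1 site, with 4 and 3 bases between them. The Irf1 distal window and the Sbno2 site at a coding start share the identical SIE, TTCCGGGAA. The lower-scoring Bcl3 window, the higher-scoring one and the highest-scoring Sbno2 window have no consensus SIE, and they ranked 172, 18 and 4. The summits at the Bcl6 first exon (rank 790) and the Irf1 promoter (rank 595) had none either. Of all 1088 LIF summits, 166 (15.3%) had a consensus SIE within 80 bp, so its lack is common.

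In the LIF list, 6 of the 9 genes had at least 1 summit within 50 kb, namely Sbno2 with 6 summits, Irf1 with 3, Bcl3 with 2, and Bcl6, Cebpb and Cebpd with 1 each. Over all protein-coding genes, 7.38% had a LIF summit this close. Myc, Klf4 and Nfil3 had none. At least 3 LIF summits were found within 50 kb of 0.315% of protein-coding genes, to which Sbno2 and Irf1 belonged. All 9 genes had been chosen as known Stat3 targets, with earlier results of these data known. Shares over all genes, here and below, are therefore set beside their counts as a description only.

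The other 4 lists had no summit within 50 kb of any of the 9 genes. The share of protein-coding genes with such a summit was itself small in these lists, at 0.615% (basal) and 1.15% (peroxide) in -/-WT MEFs and 0.41% (basal) and 0.574% (peroxide) in -/-C3S MEFs. A count of 0 of 9 is near this background and is not a result about these genes. Of the 36 pairs of a gene and a list other than LIF, 33 had their nearest summit more than 1 Mb from a start site, with a median of 4.56 Mb and a maximum of 38.5 Mb. The closest was 221 kb from Bcl6, in both the -/-WT peroxide and the -/-C3S basal lists. Such distances were not computed for other genes, so they too are not a result about these 9. It follows from the absence of such summits within 50 kb that none of the 14 LIF summits had one within 200 bp. The share of all LIF summits with such a neighbour was not computed, so this count is not a further result.

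**Figure D1:**
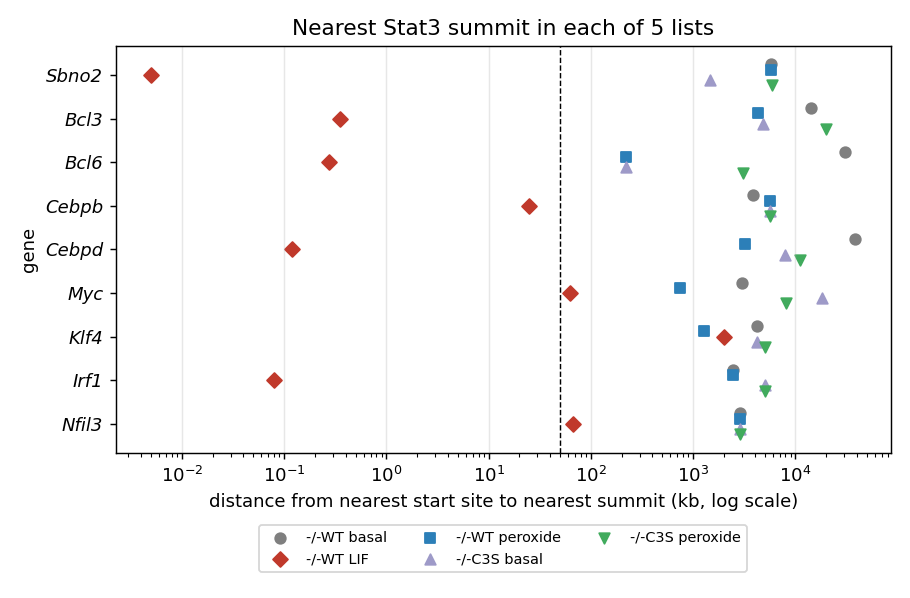
Distance in kb (log scale) from the nearest annotated start site of each of the 9 genes to the nearest summit of each of the 5 lists. The dashed line marks 50 kb. The LIF summits of 6 genes lie to its left, those of Myc (62.1 kb) and Nfil3 (66.3 kb) just to its right, and all symbols of the other lists lie at 221 kb or further.

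The 14 LIF summits had been collected by their distance from a start site, so their distances are given as a description. A promoter was taken to reach from 5 kb before a start site to 0.5 kb after it. 8 of the 14 summits (57.1%) lay in a promoter of the gene concerned, where 421 of all 1088 LIF summits (38.7%) lay in the promoter of some gene, a list not chosen by distance. Start sites of all annotated transcripts were counted here, of coding and non-coding genes alike. The study reports a smaller share of LIF peaks in promoters with the same window, and the source of the difference was not tested. By gene, 5 of 9 had a promoter summit (Sbno2, Bcl3, Bcl6, Cebpd and Irf1), against 1.62% of all protein-coding genes. With start sites of protein-coding transcripts alone, 4 of 9 had one, as Bcl3 fell out. With all start sites but only scores at or above the median, 3 of 9 had one, as the summits of Bcl6 (rank 790) and Irf1 (rank 595) fell out. The 5 genes with a promoter summit also had a summit within 500 bp of a start site, 6 summits in all. Shares over all genes were not computed for these other settings or for 500 bp, so 1.62% applies to the 5 of 9 alone. 11 summits lay upstream of their nearest start site and 3 downstream, and the distance had a median of 1.88 kb. For all LIF summits, the median distance to the nearest start site of any gene was 5.86 kb.

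**Figure D2:**
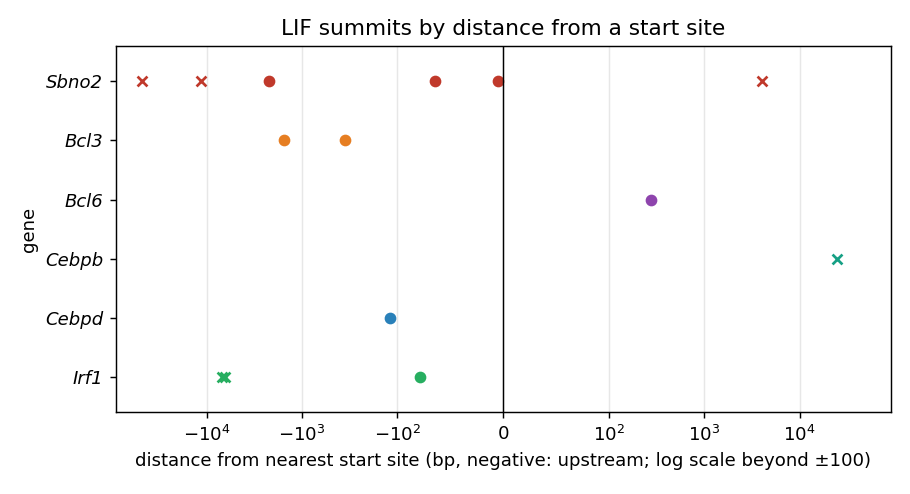
Distance in bp of each of the 14 LIF summits from the nearest start site of its gene, negative upstream, on a log scale beyond 100 bp either side. Circles are summits in a promoter and crosses are others. Of the 6 genes, Cebpb (24.9 kb downstream) is the one with no circle.

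Scores were used for ranks within the LIF list only. There, 12 of the 14 summits had at least the median score, as had 557 of the 1088 summits of the list, and their median rank was 224. The ranks ran from 4 for a summit in Sbno2 to 790 for the one at Bcl6. Among the 1620 protein-coding genes with a LIF summit within 50 kb, 5 had a higher best score than Sbno2, 34 than Bcl3, 230 than Cebpd, 375 than Irf1, 600 than Cebpb and 1238 than Bcl6. The 6 genes were thus spread over most of the range.

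**Figure D3:**
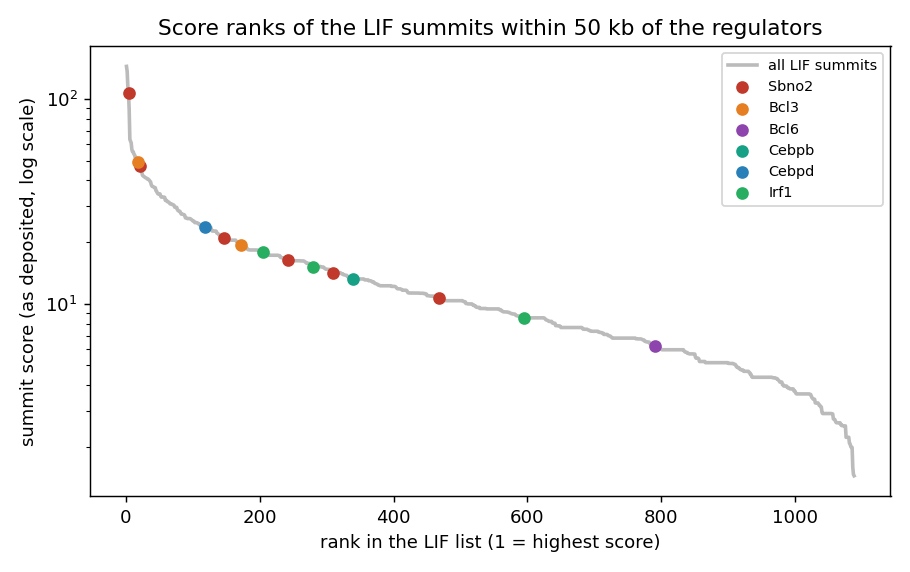
Score of every LIF summit as deposited (log scale) against its rank, with rank 1 the highest score. The grey line is the whole list of 1088 summits and the points are the 14 summits near the regulators, from rank 4 (Sbno2, score 107) to rank 790 (Bcl6, score 6.19).

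Sbno2 encodes a co-regulator of the strawberry notch family that is known as a Stat3-dependent gene of the IL-10 response in macrophages. It lies on chromosome 10 from 80056992 to 80105571 on the minus strand (GRCm38), spans 48.6 kb and has 8 annotated start sites, which fall near the 5′ end and about 30.1 kb into the gene. Its highest-scoring summit, at 80075503 (score 107, rank 4), lay at the internal start sites, 64 bp upstream of the nearest one. This is an intron of the longer transcripts, and the start there belongs to a transcript with a retained intron, next to a protein-coding one. The only site within 1 mismatch of the SIE consensus was TTTCAGGAA at 80075464 to 80075472.

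A further 3 summits fell within Sbno2 and 1 just upstream. The summit at 80101192 (score 16.3, rank 243) lay 5 bp from the start site of a protein-coding transcript, 4.38 kb into the gene, with the SIE TTCCGGGAA at 80101203 to 80101211. The summit at 80107801 (score 14.2, rank 309) was 2.23 kb upstream of the 5′ end, with the SIE TTCCAGGAA and the AP-1 site TGACTCA. Both were therefore promoter summits with a consensus SIE. They scored far below the internal one, which had none.

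The summit at 80087010 (score 21, rank 147) was in an intron 11.6 kb upstream of the internal start sites, with TTCCAGTAA, a SIE with 1 mismatch. That at 80071350 (score 10.7, rank 468) was 4.05 kb downstream of them, in an exon annotated as UTR of a transcript subject to nonsense-mediated decay, with the SIE TTCCTGGAA at 80071315 to 80071323. From the summit furthest into the gene to the one 2.23 kb upstream, 5 summits covered 36.5 kb.

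The sixth summit, at 80153088, was 47.5 kb upstream of Sbno2 and the second in score of the 6 (score 47.0, rank 21). It lay in an intron of Midn, 1.85 kb from a start site of that gene, which is the nearest gene. It held TTCTCAGAA, a TTCNNNGAA site that is not a SIE, and the AP-1 site TGACTCA. Just outside the 50 kb limit, 53.1 kb and 55.6 kb upstream, were summits of rank 27 and rank 1084, both nearest to Cirbp. Stk11, which lies between Sbno2 and Midn, had all 6 of the Sbno2 summits within 50 kb, and Cbarp had 4 of them, so that distance alone does not assign these summits to Sbno2.

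**Figure D4:**
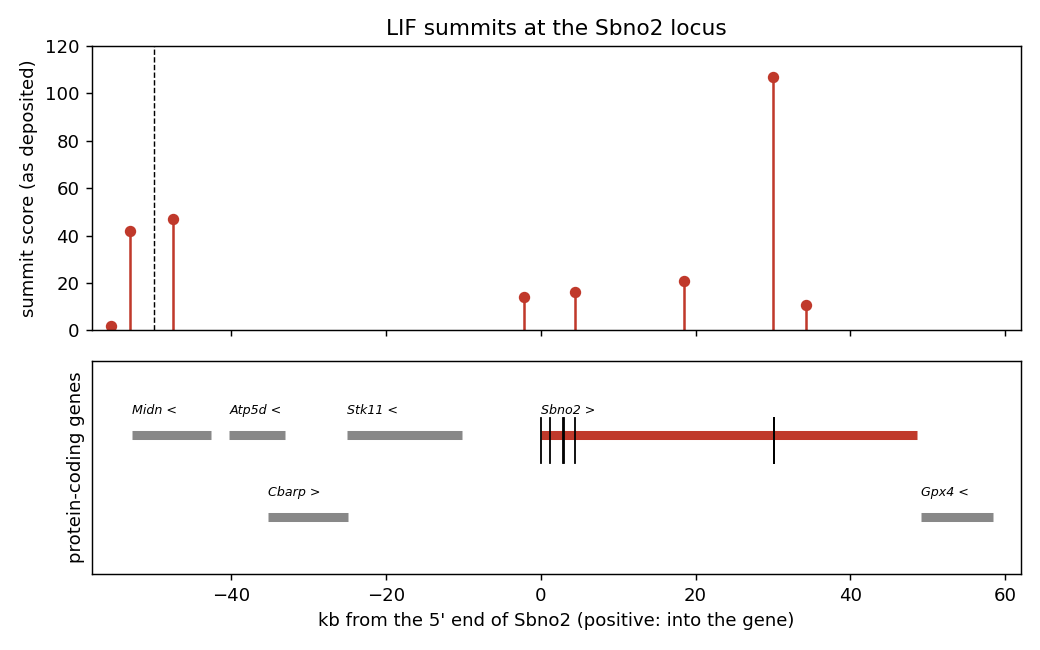
LIF summits around Sbno2, by distance in kb from the 5′ end of the gene (positive into the gene) and score as deposited. The dashed line is 50 kb upstream, bars are protein-coding genes with arrows for their direction, and black ticks are Sbno2 start sites. The highest-scoring summit, with score 107, stands at the internal start sites, 30.1 kb into the gene.

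Bcl3 encodes a nuclear member of the IκB family that acts with NF-κB p50 and p52 dimers. It lies on chromosome 7 from 19808462 to 19822770 on the minus strand and has 6 start sites over 14.3 kb. Its LIF summits, at 19817534 (score 48.9, rank 18) and 19816350 (score 19.4, rank 172), were 1.18 kb apart in an intron. They were 5.24 and 6.42 kb into the gene, and 1538 and 354 bp upstream of an internal start site that belongs to a non-coding transcript. With start sites of protein-coding transcripts alone, neither was a promoter summit. Both were also close to Gm16174, an antisense gene, whose start site was the nearest to both (981 and 203 bp).

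The higher-scoring Bcl3 summit had TTCCGGTAA, a SIE with 1 mismatch, at 19817504 to 19817512. The lower-scoring had TTCTCTGAA and TTCAGAGAA, neither of which is within 1 mismatch of the SIE. The gene had 3 consensus SIEs within 50 kb of its start sites, the closest at 19.6 kb, and none was at a LIF summit.

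Bcl6 encodes a zinc finger repressor that is known for its role in germinal centre B cells. It lies on chromosome 16 from 23965052 to 23988852 on the minus strand. Its summit at 23988578 was 274 bp downstream of the start site of the protein-coding transcript, in the UTR, and had the lowest score of the 14 (6.19, rank 790). The site TTCCTAGAA at 23988589 to 23988597 is both a SIE with 1 mismatch and a TTCNNNGAA site. With TTCTAAGAA at 23988615 to 23988623 and again at 23988630 to 23988638, the window held 3 TTCNNNGAA sites. At least 3 such sites were found at 3 of the 1088 LIF summits (0.276%), this one included. The sequence around this summit was also the most repeat-masked of the 14 (36%), and the summit overlapped the coding sequence of Gm37419, a short gene model on the opposite strand and the nearest gene (96 bp).

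In the RefSeq promoter table for the same build, which gives 250 bases before to 50 after a start, Bcl6 has a further promoter at chr16:23981234-23981533 that held 2 consensus SIEs, the first TTCCTGGAA. No LIF summit lay there. A consensus SIE was found in 1.15% of the 32851 promoters of that table, a TTCNNNGAA site in 8.3% and an AP-1 site in 7.81%. The table held 11 promoters for 7 of the 9 genes, and Cebpd and Myc were not in it. LIF summits lay in the Sbno2 promoters at chr10:80075390-80075689 and chr10:80101138-80101437 and in the Irf1 promoter at chr11:53769764-53770063.

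Cebpb and Cebpd encode basic leucine zipper factors of the C/EBP family, which act in acute phase and inflammatory gene expression. They differed in where the summit lay. Cebpd (chromosome 16, 15887286 to 15891031, plus strand) had its summit at 15887167, 119 bp upstream of the start site of the coding transcript, with a score of 23.8 and rank 119. The window had the highest GC content of the 14 (68.9%) and no SIE with up to 1 mismatch or TTCNNNGAA site. The closest to a SIE was TTCCCAGCA, with 2 mismatches in 1 arm, at 15887174 to 15887182.

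Cebpb (chromosome 2, 167688915 to 167690418, plus strand) had no promoter summit. Its only summit within 50 kb, at 167713775 (score 13.2, rank 339, shared with 16 other summits of equal score), lay 24.9 kb downstream in an intron of the lincRNA gene A530013C23Rik. The nearest protein-coding gene by start site was Tmem189, and not Cebpb. The window had the lowest GC content of the 14 (35.4%), the AP-1 site TGATTCA and no SIE within 1 mismatch. Outside the limit, 76.4 kb downstream of Cebpb, was a LIF summit of rank 9 (score 56.6) with the SIE TTCCGGGAA, in intergenic sequence nearest to the gene model Gm14321.

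Irf1 encodes the interferon regulatory factor that activates interferon-stimulated genes. It lies on chromosome 11 from 53770014 to 53778374 on the plus strand and has 10 start sites. The summits at 53763007 (score 15.2, rank 280) and 53763564 (score 17.8, rank 205) were 7007 and 6450 bp upstream of the gene, 557 bp apart. Each had a consensus SIE, TTCCGGGAA centred 11 bp before the former summit and TTCCAGGAA centred 67 bp after the latter. The nearest gene was Mir7671, whose start site was 647 and 90 bp away.

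The third Irf1 summit, at 53769935 (score 8.54, rank 595), was 79 bp upstream of the first start site. It had the lowest score of the 3 but lay closest to a Stat site, with TTCCCCGAA centred 7 bp before it. This site has 1 mismatch to the SIE and is a TTCNNNGAA site, so that all 3 Irf1 summits had a site of this wider pattern. The higher-scoring pair lay outside the 5 kb promoter window.

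Myc, Klf4 and Nfil3 had no LIF summit within 50 kb, and they differed in how far the nearest one was. Myc encodes a basic helix-loop-helix factor of cell growth and lies on chromosome 15 from 61985391 to 61990374. The nearest LIF summits were 62.1 kb downstream (rank 650) and 91.9 kb downstream (score 41.3, rank 29), both in introns of the lincRNA gene Pvt1. The nearer held TTGCCGGAA, a SIE with 1 mismatch, and the AP-1 site TGACTCA.

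Nfil3 encodes a basic leucine zipper repressor and lies on chromosome 13 from 52967209 to 52981073. The nearest LIF summits were 66.3 kb (score 13.2, rank 339) and 88.8 kb (score 5.16, rank 866) downstream, both in introns of Auh. The farther had the SIE TTCCAGGAA, an AP-1 site and TTGCGTAA, which matches the C/EBP-like pattern TTGCNNAA. Nfil3 itself had 4 consensus SIEs within 50 kb of its start site, the closest at 1.26 kb, and none was at a LIF summit.

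Klf4, a zinc finger factor known from the pluripotency network of embryonic stem cells, where LIF and Stat3 sustain it, lies on chromosome 4 from 55527143 to 55532466. Its nearest LIF summit was 2.02 Mb away, further than its nearest -/-WT peroxide summit (1.29 Mb). It was the only one of the 9 genes with no LIF summit within 100 kb, where 12.4% of all protein-coding genes had one.

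Over the 14 summits, the consensus SIE was found within 80 bp of 5 (35.7%), all at Sbno2 and Irf1, against 166 of the 1088 LIF summits (15.3%). With up to 1 mismatch, 10 had a SIE (71.4% against 66.6% in the list), and with up to 2 mismatches in 1 arm, 12 (85.7% against 87.3%). TTCNNNGAA, which contains the SIE, was found at 9 (64.3% against 40.7%). AP-1 sites were at 4 summits, 3 of Sbno2 and 1 of Cebpb (28.6% against 23.2%). TTGCNNAA was at none, where 8% of the LIF list had it. All motifs were searched on both strands, and the shares describe 14 summits at 6 genes, of which several share a gene. The median GC content was 62.1%, against 50.9% in the list.

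**Figure D5:**
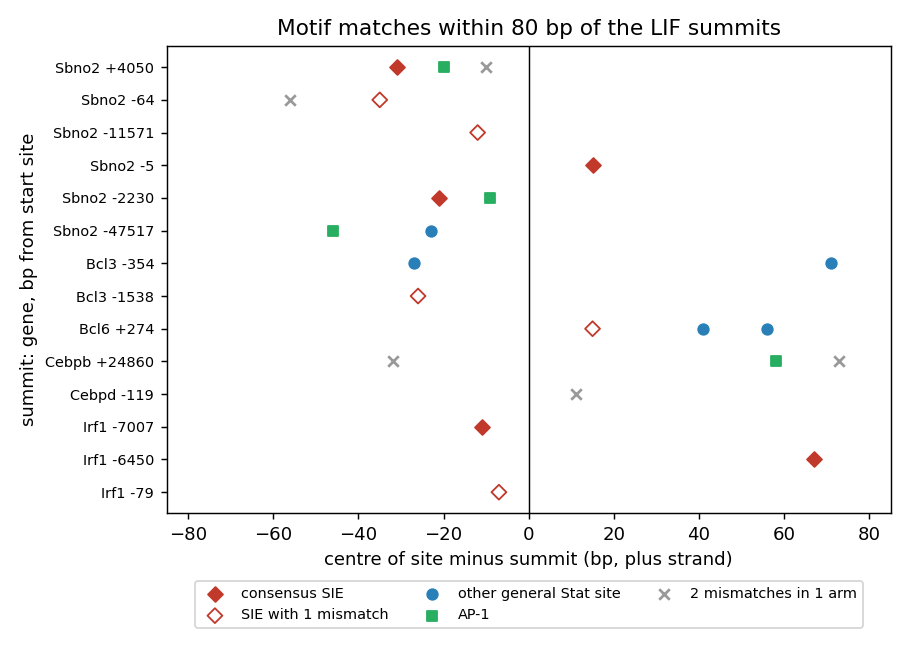
Position of each motif match relative to the summit (bp, plus strand) for the 14 LIF summits, each named by gene and distance in bp from its start site. Consensus SIEs (filled diamonds) appear at 5 summits of Sbno2 and Irf1, the Bcl6 summit has a run of 3 Stat sites on one side, and Cebpb and Cebpd have no diamond.

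Seen from the sites, 21 consensus SIEs lay within 50 kb of a start site of the 9 genes, of which 5 (23.8%) were within 80 bp of a LIF summit. Of 69398 consensus SIEs in the genome, 170 (0.245%) were. The genome share counts SIEs at any distance from a gene, and that of 23.8% only those near genes chosen as known Stat3 targets. The shares are therefore not like for like. At Sbno2, 3 of 4 SIEs were at a summit and at Irf1 2 of 3. The SIEs near Bcl3, Bcl6, Cebpb, Myc, Klf4 and Nfil3 were not at LIF summits, and Cebpd had no SIE within 50 kb.

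The nearest start site of any gene belonged to the gene in question for 7 of the 14 summits. The other 7 were nearest to Midn, Gm16174, Gm37419, A530013C23Rik and Mir7671, of which Gm16174 and Mir7671 were nearest to a pair of summits each. When protein-coding genes alone were counted, 11 summits were nearest to the gene in question, and the exceptions were those at Midn, Gm37419 and Tmem189. As the 14 summits had been collected for lying near these genes, both counts are a description only. Among all other protein-coding genes, those with the most LIF summits within 50 kb were Stk11 and Socs3 with 8 each, Cbarp and Pgs1 with 6 each and, of 7 genes with 5 each, Arid5b was the one with the highest score. Of these, Stk11 and Cbarp are neighbours of Sbno2.

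Relatives and direct partners of the 9 genes, 53 genes in all and called relatives here, were examined in the same way. 6 of them (11.3%) had a LIF summit within 50 kb, against 7.38% of all protein-coding genes, and 3 had one in the promoter, against 1.62%. None had a summit of another list, where 0.41 to 1.15% of genes had one. The counts within 50 kb are near the background and are not a result about the relatives as a group. The 3 relatives with a promoter summit are a larger share than the background, but they are few and the difference was not tested. Of 10 relatives of Bcl3, among NF-κB subunits and IκB proteins, Nfkbiz had a summit in an intron, 0.106 kb upstream of an internal start site (score 19.9, rank 168). Nfkb1 had one in an intron, 5.52 kb upstream of an internal start site (score 5.16, rank 866), with both a consensus SIE and an AP-1 site. Of 8 other interferon regulatory factors, Irf2 had a summit 0.217 kb upstream (score 22.6, rank 129), nearest to Gm16675, and Irf9 one 0.131 kb downstream (score 11.2, rank 448). Both had a TTCNNNGAA site.

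Of 10 relatives of Myc, Mnt, a repressor that competes with Myc for Max, had a summit 1.15 kb downstream of a start site (score 28.4, rank 79), although Myc had none. Of 16 relatives of Klf4, Klf9 had one 5.23 kb upstream (score 10.4, rank 478), nearest to 2410080I02Rik. None was found at Sbno1, Bcl6b, the 4 relatives of Cebpb and Cebpd or the 3 relatives of Nfil3.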

How the data were processed

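Stat3 ChIP-seq was performed with an anti-Stat3 antibody in -/-WT and -/-C3S MEFs. The submitters' processing notes name HISAT2, Picard, MACS2 and mm10, with no versions or settings. The authors combined the 2 replicates of each condition for peak calling, kept peaks above IgG and deposited 1 summit list for each, with a score per summit whose scale is not given in the sources used here. Scores served for ranks within a list only. Input, IgG and RNA libraries were not used. The samples hold 1 IgG and 1 input library, both labelled as from -/-WT MEFs, and none from -/-C3S MEFs. The files hold no depth.

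Summit positions were placed on GRCm38.p6, which shares mm10 coordinates, with GENCODE M21 start sites of all transcripts. Chromosomes 1 to 19, X and Y were used. Ranks of tied scores are shared. Motif searches covered both strands and 80 bp either side of a summit. Promoter sequences are from RefSeq. Python 3.11.15, pysam 0.24.0 and matplotlib 3.10.9 were used, and the distance and motif functions were tested on simulated data.

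The 9 genes, the 53 relatives and all settings were chosen with earlier results of these data known. Named genes are the 9, relatives with a LIF summit within 50 kb, the nearest gene where it is another, and up to 5 other protein-coding genes with the most LIF summits. Genes beside summits outside 50 kb (Cirbp, Gm14321, Pvt1, Auh and Spidr), and those listed as relatives without a summit, were named in addition. As replicates had been combined, leaving one out was not possible.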

Additional observations from a re-analysis of the deposited data

How the results depend on the processing

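Of 54 values under alternative settings, 44 stayed within 1.5 times the reported one (for the percentage of genes, within its 95% binomial interval). Many of the 44 were counts of 0 that stayed at 0, for the 4 lists other than LIF and for summits shared with another list. The 10 values that moved further were as follows. Counting to 100 kb instead of 50 kb raised the LIF summits from 14 to 23, at 8 of the 9 genes. Keeping scores at or above the median left 3 of the 5 genes with a promoter summit. Counting protein-coding genes alone raised the summits nearest to the gene in question from 7 to 11. SIEs with up to 1 mismatch were at 10 summits and those with up to 2 mismatches in 1 arm at 12, in place of 5, and AP-1 sites within 40 bp at 2, in place of 4. The percentage of genes with a LIF summit was 5.54% over all annotated genes, and 2.69%, 3.86% and 12.4% within 10, 20 and 100 kb. The 4 lists other than LIF had no summit near the 9 genes in any setting tried, up to 100 kb.

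No paired analysis was possible because each condition has a single list called on both replicates. Without depth, a peak that was not called or not kept cannot be told from an absent one, and the ranks carry no error.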

Other observations

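Across the LIF list, 30 summits had both a consensus SIE and an AP-1 site within 80 bp. The number of bases between the closest pair ranged from 3 to 100 with a median of 39.5, and it was at most 10 at 6 of the 30 summits (20%). The Sbno2 pairs, with 3 and 4 bases between the sites, were among these 6.

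Some LIF summits between 50 and 100 kb from the 9 genes scored higher than those within 50 kb. The summit 76.4 kb from Cebpb had rank 9, against rank 339 for the nearer one. The summit 96.2 kb downstream of Cebpd, in an intron of Spidr, had score 31.4 and rank 63, against rank 119 for the promoter summit. At Myc, the summit at 91.9 kb had rank 29 and the one at 62.1 kb rank 650. The target genes of these summits were not tested.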
